A study of Mus musculus with 6 samples.

Results

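The 10 genes described here encode the main heat shock chaperones of the cytosol and the mitochondrial matrix: Hspa1a, Hspa1b and Hspa8 of the HSP70 family, Hsph1, the HSP90 genes Hsp90aa1 and Hsp90ab1, the J-domain cochaperone Dnajb1, the small heat shock protein Hspb1, and the mitochondrial chaperonin pair Hspd1 and Hspe1. They were taken by gene symbol, and all 10 were found among the 23396 genes of the deposited table. All 10 were also among the 14354 genes that passed the filter on low counts. RNA came from right kidneys of male mice aged 6 months, frozen in liquid nitrogen, and was sequenced after removal of ribosomal RNA. The knockout group held 3 mice of the strain C57BL/6N-Far2tm2a(KOMP)Wtsi/2J, homozygous for the targeted Far2 allele, and the control group 3 wild-type C57BL/6N mice. The design text calls these biological replicates. Libraries carry the numbers 0, 1 and 2 within a group in the files, and these numbers match no named mouse.

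Chaperones bind unfolded or partly folded proteins and release them for refolding, assembly or degradation. HSP70 proteins work in cycles of ATP binding and hydrolysis that J-domain proteins such as Dnajb1 start and that nucleotide exchange factors such as Hsph1 complete, and clients can then be passed to HSP90. Some of these genes are expressed at all times, whereas others are switched on by heat, oxidants or ischaemia through heat shock factor 1 (Hsf1), which binds heat shock elements, alternating repeats of the bases GAA and TTC. In the kidney, Hspa1a, Hspa1b and Hspb1 are known for their induction in tubules after ischaemia and, in the medulla, under osmotic stress.

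Upstream sequences that hold such repeats are printed for the members whose values are followed most closely below. RefSeq promoter sequences on GRCm38.p6, the assembly that mm10 names, were matched for 7 of the 10 members, all but Hspa8, Hsp90aa1 and Hsp90ab1. The 250 bases before the annotated start were searched on both strands for 2 adjoining units, GAANNTTC or TTCNNGAA, and for 3, GAANNTTCNNGAA or TTCNNGAANNTTC; a 3-unit match contains overlapping 2-unit matches. The first pattern was found in 12.8% of 32851 promoter windows of the same length and the second in 0.466%. Of the 7 members, read at the start nearest to the deposited gene, 6 held the 2-unit pattern, all but Dnajb1, and Hspd1 and Hspe1 held the 3-unit pattern. The matches of Hspd1 and Hspe1 are the same bases read from opposite strands, and the windows of Hspa1a and Hspa1b are near-identical. These counts are therefore not counts of separate sequences. Capitals below mark the matches, each sequence reads 5′ to 3′ on the strand given, and a match is a match of letters only.
Hspd1 and Hspe1, stretch between their starts, chr1:55087933-55088147, strand of Hspe1: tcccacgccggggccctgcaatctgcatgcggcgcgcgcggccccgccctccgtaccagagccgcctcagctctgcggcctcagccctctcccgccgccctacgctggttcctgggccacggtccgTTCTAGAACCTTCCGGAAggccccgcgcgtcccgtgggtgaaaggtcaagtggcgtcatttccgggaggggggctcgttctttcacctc
Hspb1, chr5:135887669-135887918, plus strand: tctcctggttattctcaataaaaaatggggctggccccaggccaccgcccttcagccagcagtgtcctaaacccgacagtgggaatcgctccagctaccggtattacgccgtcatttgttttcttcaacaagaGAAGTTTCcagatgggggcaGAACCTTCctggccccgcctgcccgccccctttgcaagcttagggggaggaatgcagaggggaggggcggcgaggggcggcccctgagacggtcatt
Hspa1a, chr17:34972157-34972406, minus strand: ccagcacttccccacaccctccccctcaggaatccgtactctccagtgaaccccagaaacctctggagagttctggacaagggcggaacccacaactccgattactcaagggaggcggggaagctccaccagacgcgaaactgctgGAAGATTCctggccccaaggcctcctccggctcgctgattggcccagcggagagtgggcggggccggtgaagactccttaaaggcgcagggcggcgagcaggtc
Hspa1b, chr17:34959239-34959488, minus strand: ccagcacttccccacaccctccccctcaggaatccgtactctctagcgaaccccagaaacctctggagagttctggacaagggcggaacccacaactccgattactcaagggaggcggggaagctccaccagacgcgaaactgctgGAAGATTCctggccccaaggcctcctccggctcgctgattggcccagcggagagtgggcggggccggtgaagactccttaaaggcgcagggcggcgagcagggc
Hsph1, chr5:149636316-149636565, minus strand: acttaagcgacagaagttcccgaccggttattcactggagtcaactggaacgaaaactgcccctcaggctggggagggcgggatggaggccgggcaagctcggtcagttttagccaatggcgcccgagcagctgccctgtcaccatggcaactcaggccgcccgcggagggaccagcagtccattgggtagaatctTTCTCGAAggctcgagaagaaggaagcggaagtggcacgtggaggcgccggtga

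With the starts used here, the stretch of 215 bases lies between Hspd1 and Hspe1, which are read in opposite directions. Its matches overlap in a single unbroken run of capitals. RefSeq also lists a second start of Hspd1, 311 bases from the one used here. The window before that start held 0 matches of either pattern. The second start, 55088243, is also where GENCODE ends the Hspd1 gene. By that model the stretch and its matches lie within Hspd1. The upstream sequences of Hspa1a and Hspa1b were alike at 247 of 250 positions (98.8%), and in both the match ended 96 bases before the start. In Hsph1 the match ended 46 bases before the start.

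Together the 10 genes took between 0.521% and 0.577% of all gene-assigned fragments. Their levels per length spanned a wide range. They are compared here as deposited FPKM, the authors' estimate of fragments per transcript length and library depth, averaged over the 6 libraries. Hspa8, the constitutive HSP70 of the cytosol, led with 1149 FPKM and made up 45.4% to 55.2% of the members' summed FPKM in a library. Hsp90ab1, the constitutive HSP90, averaged 304 FPKM, the chaperonin Hspd1 297 FPKM, Hsp90aa1, the inducible HSP90, 233 FPKM, and Hspe1, the lid of the chaperonin, 209 FPKM. The ranges over the libraries of neighbours among these 4 overlapped, so their order was not resolved. Hsph1, the HSP110 nucleotide exchange factor, averaged 32.3 FPKM and Hspb1, a small chaperone that holds unfolded proteins without ATP, 21.7 FPKM, also with overlapping ranges. Dnajb1 averaged 11.7 FPKM and Hspa1b, one of the inducible HSP70 genes, 8.12 FPKM, with ranges that overlapped narrowly. Hspa1a, its near-identical copy, was lowest with 4.02 FPKM, below every value of Hspa1b. In these kidneys the constitutive Hspa8 stood 110.5 to 189 times above the inducible Hspa1b on the FPKM scale.

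**Figure D1:**
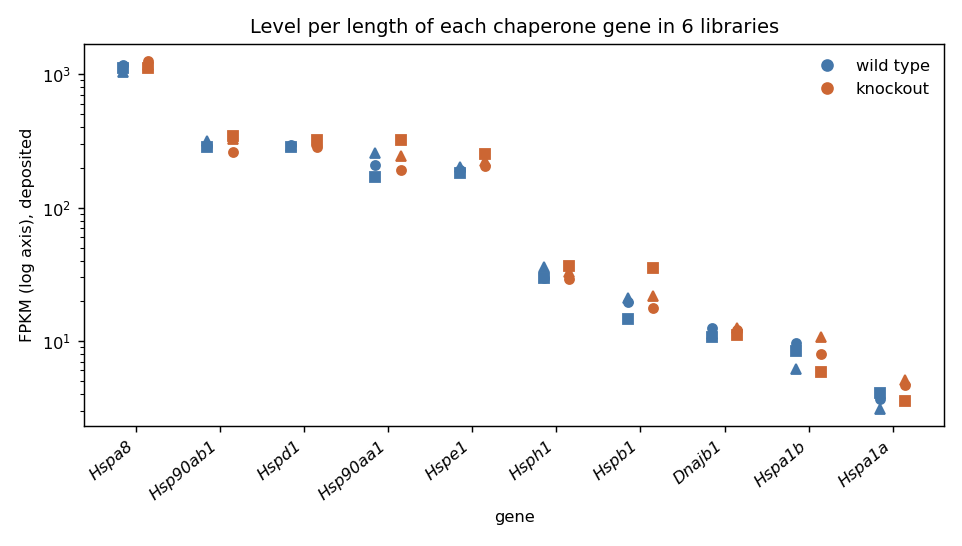
Deposited FPKM of each of the 10 chaperone genes on a log axis, ordered by the mean over 6 libraries; circles, squares and triangles are libraries 0, 1 and 2 of the wild type (blue) and the knockout (orange). Hspa8 lies above all other members and Hspa1a below them in the means, and blue and orange points overlap for every gene except Hspe1, whose knockout points (204.6 to 254 FPKM) lie above its wild-type points (180.4 to 202 FPKM). How many of all genes did not overlap in FPKM was not computed.

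The comparison asked whether kidneys of Far2 knockout mice, which carry a targeted allele of the gene for fatty acyl-CoA reductase 2, differ from wild-type kidneys in these chaperones. None of the 10 genes passed edgeR's quasi-likelihood test at a Benjamini-Hochberg adjusted p under 0.05, and over all genes tested the share that passed was 0%. The smallest adjusted p of a member was 0.600 (Hspe1). At an unadjusted p under 0.05 the test called 0 of the 10, where the share over all genes was 8.31%. DESeq2 called 0 of the 10 after adjustment (0.0776% of the genes to which it gave an adjusted p) and 1, Hspe1, at an unadjusted p under 0.05 (4.39% of all genes with a p). On the CPM scale (fragment counts scaled to the TMM-adjusted library size) the groups overlapped for all 10 members, whereas 7.12% of all tested genes were higher and 6.96% lower in knockout without overlap. The knockout mean was the higher one for 9 of the 10 (48.3% of all tested genes), with a median log2 fold change of 0.090 against −0.0066 over all tested genes. That median was 0.060 without knockout 1 and 0.15 without knockout 0. Of 8 proximal tubule markers, 7 also had a higher knockout mean, with summed levels of 30136 to 36640 CPM in wild type against 34265 to 36573 CPM in knockout, and all 5 adipocyte genes had a higher one. The knockout mean was the lower one for all 7 smooth muscle and pericyte genes, 9 macrophage, 6 fibroblast and 5 podocyte genes and for 8 of 10 tubular injury genes. The summed CPM of the fibroblast genes was 319, 206 and 217 in wild-type 0, 1 and 2 and 188 to 212 in knockout. That of the macrophage genes was 503, 288 and 270 in wild type and 224 to 300 in knockout. Wild-type 0 thus stood apart in both. The part of these markers in the chaperone values was not tested. In the authors' deposited table, 4 of the 10 had a p under 0.05, Hspb1, Hspe1, Hsp90aa1 and Hspa1a, and 0 had a q under 0.05, the smallest being 0.190 for Hspb1. What share of all genes had a p under 0.05 there was not computed. The count of 4 is therefore not read as a result about the members.

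**Figure D2:**
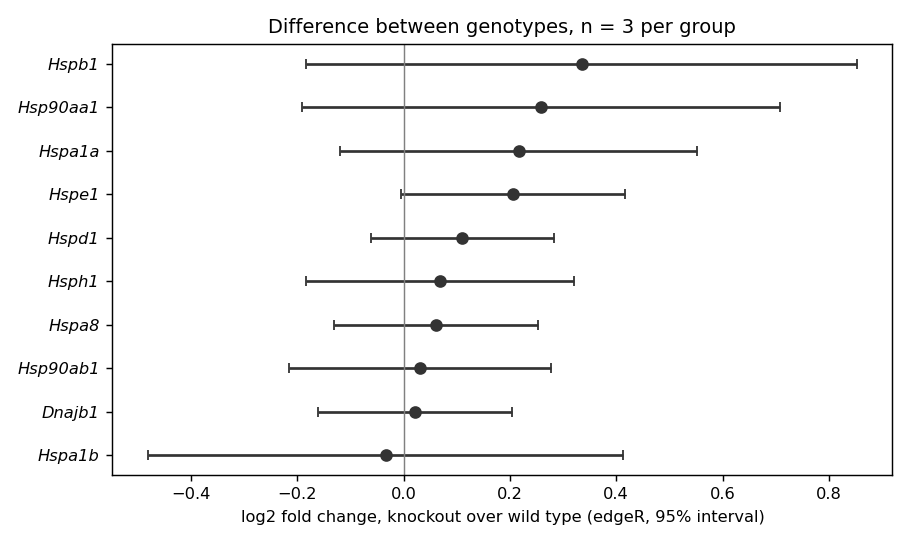
Knockout against wild type as a log2 fold change for each chaperone gene, with its 95% interval, from edgeR's quasi-likelihood fit of 3 against 3 libraries; the vertical line marks no difference. All 10 intervals include 0, and the widest belong to Hspb1, Hsp90aa1 and Hspa1b.

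The constitutive Hspa8 was among the steadiest members. Its level was 2846, 2764 and 2711 CPM in wild-type libraries 0, 1 and 2 and 3084, 2696 and 2902 CPM in knockout libraries 0, 1 and 2. Knockout 0 was highest and knockout 1 lowest, so the wild-type values lay within the knockout range. Wild-type libraries averaged 2774 ± 68.3 CPM (SD, n = 3), knockout libraries 2894 ± 194 CPM, and the log2 fold change was 0.061 ± 0.086 (SE). As a fold, its 95% interval ran from 0.914 to 1.19. Of its 50-base words, 45.3% also occur in the transcript of Gm15459, so its fragments may be less certain.

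The inducible HSP70 genes Hspa1a and Hspa1b lie near each other on the minus strand of chromosome 17, each with 1 exon, Hspa1a from 34969190 to 34972156 and Hspa1b from 34956436 to 34959238 (GENCODE on GRCm38). Of the 50-base words in the Hspa1a transcript, 58.8% also occur in that of Hspa1b, so how fragments were divided between the copies is uncertain. Hspa1a was at 10.9, 13.1 and 10.1 CPM in wild type and 13.7, 10.6 and 15.4 CPM in knockout. Hspa1b was at 27.1, 25.7 and 19.2 CPM in wild type and 22.4, 16.9 and 30.9 CPM in knockout. Both copies were highest in knockout 2 and low in wild-type 2 and knockout 1. The log2 fold change was 0.22 ± 0.15 (SE) for Hspa1a and −0.034 ± 0.20 for Hspa1b. With both copies summed it was 0.051 ± 0.17 (edgeR, Benjamini-Hochberg adjusted p = 0.943). The FPKM ratio of Hspa1b to Hspa1a ran from 1.98 to 2.61 in wild type and from 1.66 to 2.10 in knockout.

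The HSP70 partners Dnajb1 and Hsph1 differed in their spread. Dnajb1, whose J domain stimulates the ATPase of HSP70, was at 29.5, 26.4 and 28.7 CPM in wild type and 28.6, 27.2 and 30.1 CPM in knockout. Its log2 fold change, 0.021 ± 0.082 (SE), was the nearest to 0 among the members, and the 95% interval on the fold scale was 0.894 to 1.15. Hsph1 was at 111, 112 and 143 CPM in wild type and 114, 143 and 127 CPM in knockout. Here wild-type 2 and knockout 1 stood highest and nearly equal, and the log2 fold change was 0.069 ± 0.11.

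Hsp90aa1 and Hsp90ab1 encode the inducible and the constitutive cytosolic HSP90, which hold kinases and steroid receptors ready for activation. Hsp90aa1 was at 616, 504 and 819 CPM in wild type and 593, 987 and 739 CPM in knockout, a spread of 1.96-fold between wild-type 1 and knockout 1. Hsp90ab1 was at 886, 915 and 1060.5 CPM in wild type and 834, 1068 and 1021 CPM in knockout, a spread of 1.28-fold. In both genes the highest library of each group was wild-type 2 or knockout 1. Hsp90aa1 averaged 646 ± 159 CPM (SD, n = 3) over the wild-type libraries and 773 ± 199.6 CPM over the knockout ones. Its log2 fold change was 0.26 ± 0.20 (SE), with a fold interval of 0.876 to 1.63 (edgeR, Benjamini-Hochberg adjusted p = 0.703). For Hsp90ab1 the log2 fold change was 0.031 ± 0.11. The longest transcripts of the 2 genes shared no 50-base word, but 51.5% of the words of Hsp90aa1 also occur in the transcript of Gm12346, so its fragments may be less certain.

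Hspb1, which also guards actin filaments, was at 15.5, 13.1 and 18.6 CPM in wild type and 13.8, 28.2 and 17.7 CPM in knockout. Knockout 1 stood alone, while the other knockout libraries lay within the wild-type range. The fitted log2 fold change of 0.34 ± 0.23 (SE) was the highest of the 10, with an interval of 0.881 to 1.81 on the fold scale (edgeR, Benjamini-Hochberg adjusted p = 0.681). Without knockout 1 it was 0.0056. Of its 50-base words, 51.6% also occur in the transcript of Hsp25-ps1, so this count too is less certain.

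The mitochondrial pair came closest to a separation of the groups in CPM. Hspe1 was at 107, 109.5 and 122 CPM in wild type and 115, 147 and 128 CPM in knockout, overlapping because wild-type 2 exceeded knockout 0. Its means were 113 ± 8.11 CPM (SD, n = 3) and 130.2 ± 16.1 CPM, and its log2 fold change was 0.21 ± 0.094 (SE), a fold of 1.15 with an interval of 0.996 to 1.33. Without knockout 1 the log2 fold change was 0.11. On the deposited FPKM scale its groups did not overlap, and limma on log2(FPKM + 1) gave 0.24 ± 0.091 with a Benjamini-Hochberg adjusted p of 0.630. How many of all genes did not overlap in FPKM was not computed. In CPM, 7.12% of all tested genes were higher in knockout without overlap. Hspd1, which forms the folding chamber that Hspe1 closes, was at 628, 611 and 664 CPM in wild type and 638, 726 and 690.3 CPM in knockout, and its log2 fold change was 0.11 ± 0.077. Of its 50-base words, 42.8% also occur in the transcript of Hspd1-ps3. Both genes had their highest value in knockout 1 and their second highest in knockout 2.

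The ratio of the pair was set beside 5 other ratios of member FPKM. Hspd1 over Hspe1 was 1.53, 1.57 and 1.43 in wild type and 1.40, 1.26 and 1.39 in knockout, so that all knockout values were the lower ones. An exact two-sided permutation test gave p = 0.1, the smallest that 3 against 3 libraries allow, and 0.7 after adjustment over the 7 ratios computed. As a ratio of CPM it was 5.87, 5.58 and 5.44 in wild type and 5.54, 4.93 and 5.39 in knockout, and the groups overlapped. The FPKM ratio was highest in wild-type 1 and the CPM ratio in wild-type 0. A fixed transcript length and library depth alone would keep the same order. The deposited FPKM therefore holds a further step, which was not examined. The other 5 FPKM ratios overlapped between the groups.

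**Figure D3:**
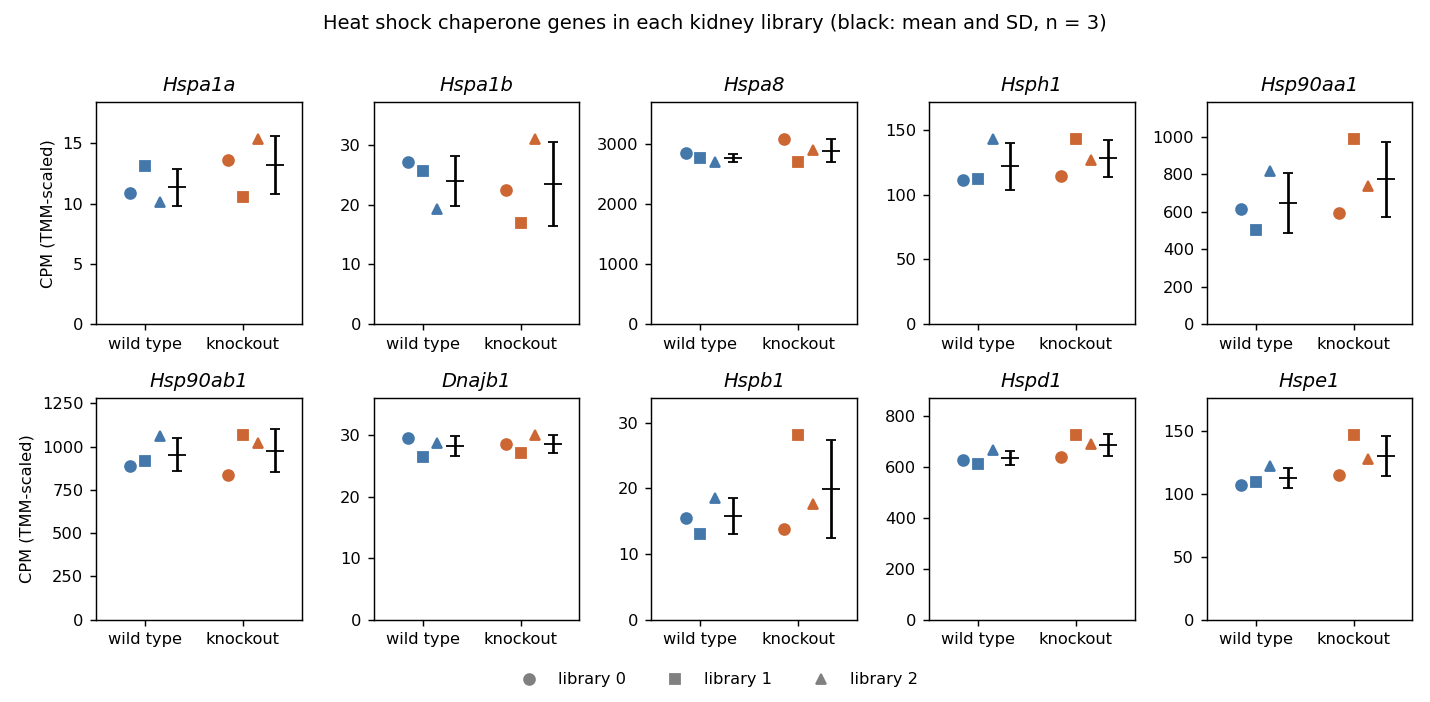
CPM of each chaperone gene in the 3 wild-type (blue) and 3 knockout (orange) libraries, with circles, squares and triangles for libraries 0, 1 and 2 and black bars for the group mean and SD; each axis starts at 0. In Hsph1, Hsp90aa1, Hsp90ab1, Hspb1, Hspd1 and Hspe1 the knockout square is the highest point of the panel. It is nearly level with the wild-type triangle in Hsph1 and Hsp90ab1. In Hspa1b and Hspa8 the knockout square is the lowest point.

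Within the groups, the members followed more than a single order of libraries. Hsp90aa1, Hsp90ab1, Hsph1, Hspb1, Hspd1 and Hspe1 were each highest of their group in wild-type 2 and in knockout 1. Hspa1a, Hspa1b and Hspa8 were each lowest of their group in the same libraries, and Dnajb1 did neither. Over all tested genes, 10.6% were highest of their group in both and 10.9% lowest in both. This split of the members was noticed in these data and is given as a description. Relative to the mean of the other libraries of its group on the log2 scale, knockout 1 differed by 0.85 for Hspb1, 0.58 for Hsp90aa1, −0.45 for Hspa1a and −0.64 for Hspa1b. The first 2 of these exceeded the values of 99.5% and 98.5% of all tested genes, and Hspa1b exceeded 2.38%. In wild-type 2 the differences were 0.38, 0.55, −0.23 and −0.45 for the same 4 genes.

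Wild-type 2 and knockout 1 were also the libraries with the fewest fragments, 15843181 and 15261362, where the others held 17611810 to 20631158. Summed proximal tubule markers, 8 genes, were highest there as well, at 36640 and 36573 CPM against 30136 to 35549 CPM in the others. In bulk tissue, a change in the share of a cell type and a change in RNA per cell cannot be told apart, and the part of depth or cell makeup in this pattern was not tested. With both libraries left out, a fit chosen after seeing the data, the log2 fold change was 0.26 ± 0.14 (SE) for Hsp90aa1, 0.14 ± 0.16 for Hspb1 and 0.17 ± 0.087 for Hspe1, and 0 of the 10 members passed.

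**Figure D4:**
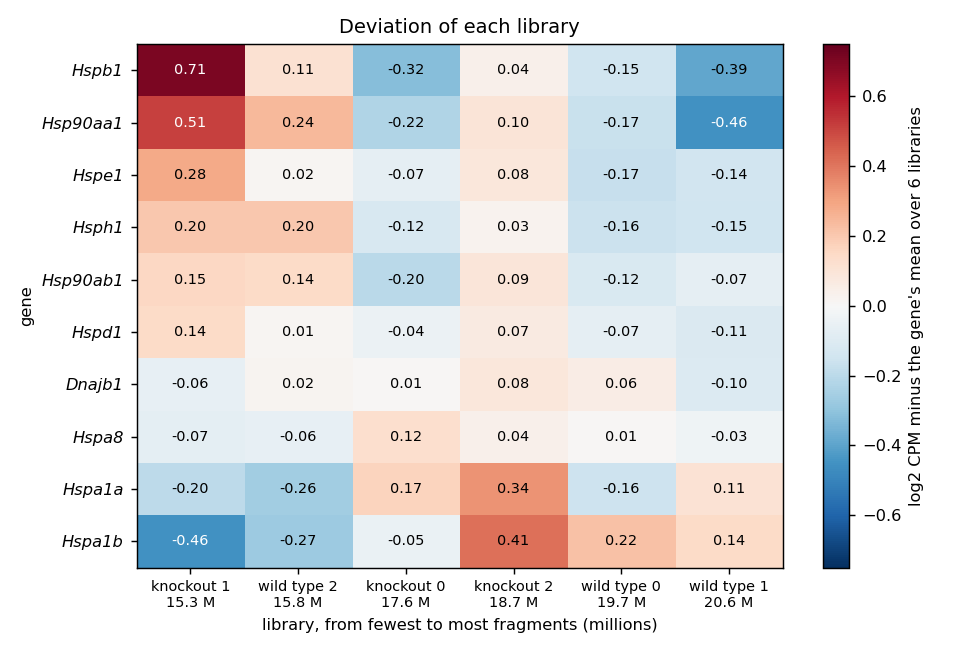
Log2 CPM of each chaperone gene minus its mean over the 6 libraries (red above, blue below), with libraries ordered from fewest to most fragments. In knockout 1 and wild-type 2, on the left, the first 6 genes are above their means and Hspa8, Hspa1a and Hspa1b below, with the extremes, 0.71 for Hspb1 and −0.46 for Hspa1b, in knockout 1.

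Spread between mice of a group differed widely among the members. The pooled within-group SD of log2 CPM was 0.41 for Hspb1, 0.36 for Hspa1b and 0.36 for Hsp90aa1, larger than in 98.4%, 98.0% and 95.2% of tested genes within 1 log2 unit of the same abundance. For Hspa8, Dnajb1 and Hspd1 it was 0.073, 0.078 and 0.079, larger than in only 23.1%, 25.6% and 38.7% of such genes. For Hsph1 and Hspa1a the share was 90.3% and 88.4%.

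The mean profile of the 10 members over the 6 libraries, each centred on its own mean log2 CPM, was −0.071, −0.12 and 0.015 in wild type and −0.073, 0.12 and 0.13 in knockout. Hspd1 lay closest to it among the members, with a root mean square difference of 0.028, and Hspa1b farthest, with 0.33. Of 9397 other genes considered, those most like it were Focad (0.024), Tmem106c (0.026), Mrps17 (0.026), Prmt6 (0.029) and Dhrs4 (0.029), over 6 libraries.

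The wider chaperone network was read from 9 lists by family, 94 genes in all, of which 91 were tested. Most act in the cytosol or the mitochondria, but some, such as Dnajb9, Dnajb11, Dnajc3 and Hspa13, belong to the endoplasmic reticulum. By edgeR 0 of the 91 passed after adjustment, and at an unadjusted p under 0.05 there were 5 with a higher mean in knockout (3.17% of all tested genes) and 1 with a lower mean (5.14%). By DESeq2 0 passed in each of the lists. In CPM the groups did not overlap for 15 with higher values in knockout (7.12% of all tested genes) and 2 with lower values (6.96%). The knockout mean was the higher one for 61 (48.3% of all tested genes) and the lower one for 30. Their median log2 fold change was 0.062, against −0.0066 over all tested genes. Genes of the lists that are named below did not pass, and their values are given as a description.

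Heat shock factor 1 itself was at 17.0, 17.5 and 17.3 CPM in wild type and 16.9, 16.9 and 16.4 CPM in knockout. The knockout values in CPM were all the lower ones, by a narrow margin, as in 6.96% of all tested genes. In FPKM the groups overlapped. The log2 fold change of Hsf1 was −0.045 ± 0.077 (SE). Hsf2, a relative that can pair with Hsf1, stood at 0.065 ± 0.099, and Hsf4, best known from the lens, was near the lower limit at 0.598 to 1.24 CPM. Hsbp1, a small protein that binds heat shock factor trimers, stood at 0.055 ± 0.065. Ier5, a feedback partner of heat shock factor 1, had a log2 fold change of −0.19 ± 0.15.

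The list of 11 mitochondrial proteostasis genes was evenly divided, with 6 higher and 5 lower means in knockout. Its log2 fold changes ran from −0.23 to 0.18, with a median of 0.00081. Genes of other lists that act in the matrix are given beside it. Grpel1, Grpel2, Clpx, Dnajc19 and Yme1l1 are named because each had 1 of the 2 smallest p of its list. All genes named in this paragraph had a higher knockout mean, and the 5 of the list with a lower one are not among them. Hspa9, the HSP70 of the mitochondrial matrix, was at 759, 771 and 774 CPM in wild type and 788, 818 and 820.3 CPM in knockout. Grpel1, its nucleotide exchange factor, was at 90.7, 86.5 and 83.8 CPM in wild type and 96.7, 98.7 and 93.9 CPM in knockout. Grpel2, the second such factor, was at 71.9, 66.3 and 72.2 CPM and at 78.2, 78.0 and 83.0 CPM. In CPM the groups did not overlap in these 3 genes, as in 7.12% of all tested genes with higher knockout values, and none passed. In FPKM they overlapped for Hspa9 and Grpel1 but not for Grpel2. Their log2 fold changes were 0.075 ± 0.067 (SE), 0.15 ± 0.062 and 0.19 ± 0.066. Clpx, the unfolding subunit of a matrix protease, stood at 0.18 ± 0.079, without overlap in CPM but with overlap in FPKM. Trap1, the mitochondrial HSP90, stood at 0.13 ± 0.074, with overlap in CPM but not in FPKM. Dnajc19, of the import motor, stood at 0.15 ± 0.072 without overlap on either scale. The inner membrane protease gene Yme1l1 stood at 0.16 ± 0.090 with overlap on both. The share of all genes without overlap in FPKM was not computed.

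Among the HSP90 and HSP70 partners, Chordc1, an HSP90 cochaperone, was at 56.5, 53.7 and 61.1 CPM in wild type and 61.0, 77.0 and 65.6 CPM in knockout, with an unadjusted p of 0.0250 by edgeR's quasi-likelihood test. Ahsa1, which activates the ATPase of HSP90, was at 78.1, 70.0 and 84.9 CPM in wild type and 78.8, 107 and 87.5 CPM in knockout. Of the 15 HSP90 cochaperones tested, 7, among them Ahsa1, Chordc1 and Stip1, were highest of their group in wild-type 2 and knockout 1, as Hsp90aa1 was, where the share over all genes was 10.6%. Hspa4l and Hspa4, of the HSP110 family, showed the same order of libraries, with log2 fold changes of 0.30 ± 0.15 (SE) and 0.048 ± 0.066, and so did Hspa13, an HSP70 of the endoplasmic reticulum, with 0.24 ± 0.12. Dnaja1, a J-domain partner of Hspa8, stood at 0.14 ± 0.11 and Dnajb6, which keeps aggregation-prone proteins soluble, at 0.15 ± 0.069. Bag3, an inducible exchange factor that steers clients to autophagy, was low in wild-type 2 and knockout 1, like Hspa1b, and stood at −0.053 ± 0.16.

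Of the remaining small heat shock proteins, Cryab, a lens crystallin also made in kidney, stood at −0.0065 ± 0.090 (log2, SE), Hspb8 at −0.34 ± 0.29 and Hspb2 at −0.50 ± 0.29, the last at 0.740 to 1.61 CPM. The cytosolic chaperonin TRiC, which folds actin and tubulin, and its partner prefoldin had a higher mean in knockout for 11 of 13 tested genes (48.3% of all tested genes), with a median log2 fold change of 0.11. Cct6a, a TRiC subunit, stood at 0.15 ± 0.075. Pfdn2, a prefoldin subunit, was the 1 gene of the 9 lists with a lower mean and an unadjusted p under 0.05, at 14.7, 13.6 and 14.7 CPM in wild type and 12.5, 12.2 and 12.4 CPM in knockout.

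**Figure D5:**
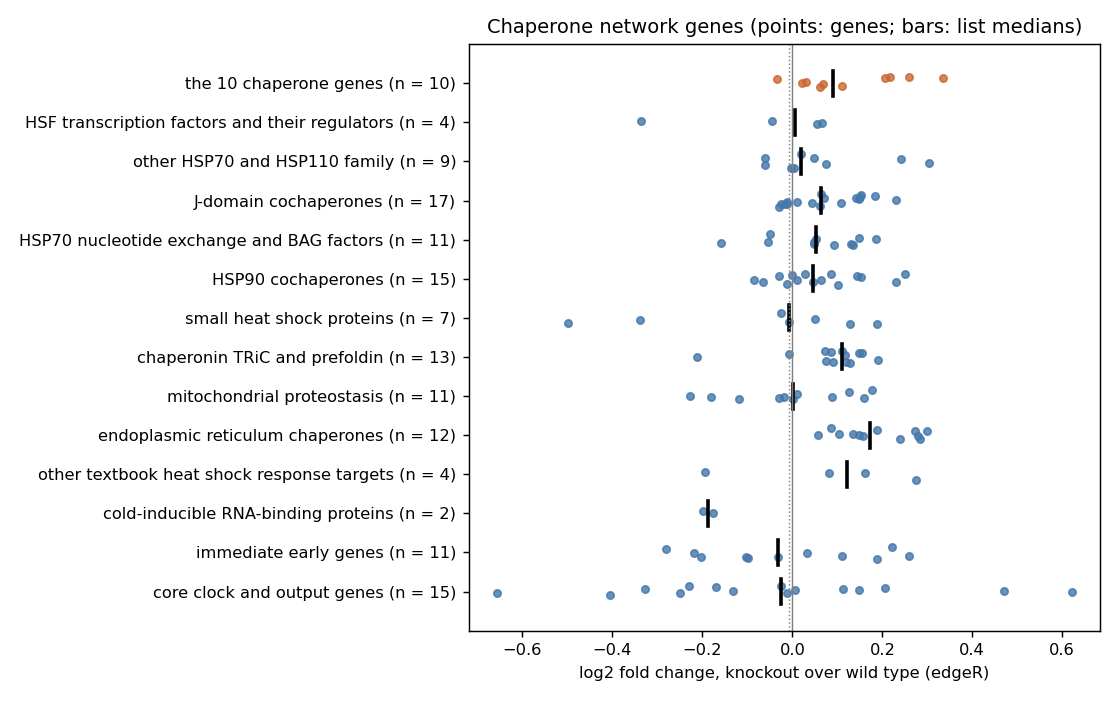
Knockout against wild type as a log2 fold change for the 10 chaperone genes (orange) and 13 further lists (blue), 1 point per tested gene, with black bars at the list medians and a dotted line at the median of all tested genes. The 12 endoplasmic reticulum chaperone genes all lie above 0, and the widest scatter is in the core clock and output genes.

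Chaperones of the endoplasmic reticulum, which serve secreted and membrane proteins, showed the library order of Hsp90aa1 in most of the list. Of the 12 tested, 11 were highest of their group in wild-type 2 and knockout 1, against 10.6% of all tested genes. Hspa5, the HSP70 of that compartment, was at 624, 568 and 833 CPM in wild type and 636, 1092 and 765 CPM in knockout. Its HSP90, Hsp90b1, was at 595, 528 and 783 CPM and at 601, 858 and 653 CPM, and Manf, made under stress of that compartment, stood at 0.28 ± 0.14 (log2, SE). All 12 had a higher mean in knockout (48.3% of all tested genes), with a median of 0.17. Of the 12, 0 passed edgeR's quasi-likelihood test, adjusted or at an unadjusted p under 0.05.

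Lists of cold-inducible, immediate early and clock genes were read beside these values. The cold-inducible RNA-binding genes Cirbp and Rbm3 had log2 fold changes of −0.20 ± 0.11 (SE) and −0.18 ± 0.11, and both were highest in wild-type 1, where Hsp90aa1 and Hspb1 were lowest. Of 11 immediate early genes tested, 0 were highest of their group in both wild-type 2 and knockout 1 (10.6% of all tested genes). In the same libraries 2, Junb and Jund, were lowest of their group in both (10.9% of all tested genes). The knockout mean was higher for 5 and lower for 6 of the 11. Dusp1 and Jund, named for the smallest p, stood at −0.28 ± 0.12 and −0.22 ± 0.11. The 15 clock and output genes had a higher knockout mean for 6 and a lower one for 9, with log2 fold changes from −0.66 to 0.62. At an unadjusted p under 0.05 by edgeR, 2 were higher (3.17% of all tested genes) and 2 lower (5.14%). The clock gene Per1 was at 11.3, 19.6 and 22.5 CPM in wild type and 11.8, 8.91 and 12.9 CPM in knockout, so wild-type 2 and knockout 1, alike in the chaperones, held its highest and lowest values. Dbp, a clock output gene, was likewise highest in wild-type 2 and lowest in knockout 1, with a log2 fold change of −0.40 ± 0.14. No collection time is stated in the labels, and the part of time of day in the chaperone values was not tested.

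Injury and macrophage markers were highest in another library. Summed CPM of 10 tubular injury genes was 1579 in wild-type 0 and 775 to 898 in the other 5 libraries, and 9 macrophage genes summed to 503 CPM in wild-type 0 and 224 to 300.1 CPM in the others. In CPM no member was highest in wild-type 0, and in FPKM 1 was, Dnajb1. Far2 was at 1.43 to 1.98 CPM in wild type and 1.26 to 1.67 CPM in knockout, a log2 fold change of −0.23 ± 0.24 (SE). A count over the whole gene does not show which exons it comes from, so it does not check the genotype labels.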

How the data were processed

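Stranded libraries were prepared from total RNA after ribosomal RNA depletion, per the labels' protocols. Per the submitters' processing notes, which state no roles, Cuffdiff, Cufflinks 2.2.1, SAMtools 1.2, TopHat2 2.0.13, cutadapt 1.2.1, Bowtie2 2.2.3 and mm10 were used. Which gene models were used, the strand setting and how multiply aligned fragments were handled are not stated there. Deposited by the authors were the estimated count of fragments for every gene in each library, whole for all 10 members, and FPKM per library. The authors' deposited comparison holds a log2 fold change, p-value and q-value for each gene. A further deposited table, of scaled counts, was left out.

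Estimated counts were rounded and, after filterByExpr, scaled by TMM and fitted without covariates in edgeR 4.0.16 (quasi-likelihood F test, two-sided; R 4.3.3), with Benjamini-Hochberg adjustment over 14354 genes and a threshold of 0.05. The SE is the log2 fold change divided by the root of F. Libraries held 15261362 to 20631158 fragments. The code was tested on simulated data.

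Members, gene lists and alternatives were chosen with earlier results of these data known. Named genes are all members, the 2 smallest p of each list, fixed network genes, and the 5 genes nearest to the members' mean profile at a mean log2 CPM of at least 3. A gene that this rule names is not reported here. The alternatives tried were upper-quartile and RLE scaling, 2 other filters, DESeq2 1.42.0, limma 3.58.1 (voom, and log2(FPKM + 1) and log2(FPKM + 0.1)), a threshold of 0.10, Hspa1a and Hspa1b summed, mitochondrial and small noncoding genes removed, and each library left out. Sequences came from RefSeq and GENCODE tables on GRCm38, read in Python 3.11.15.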

Additional observations from a re-analysis of the deposited data

How the results depend on the processing

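With the alternatives run, 0 of the 10 members passed in each fit, and the members' median log2 fold change, 0.090, stayed positive, at 0.060 (without knockout 1) to 0.15 (without knockout 0). Calls over all genes were 0 in the main analysis, 1 without a filter, 1 at a threshold of 0.10, 12 by DESeq2, 1 with wild-type 2 and knockout 1 left out together (chosen after seeing the data), and 0 to 1 with each library left out in turn. Members near equality changed sign. The log2 fold change of Hspa1b, −0.034, was 0.0079 on log2(FPKM + 1), 0.0070 on log2(FPKM + 0.1), 0.023 with both shallow libraries left out, and −0.29 to 0.15 with each library left out. Leaving out each library gave −0.040 to 0.13 for Hsp90ab1, −0.022 to 0.056 for Dnajb1 and −0.018 to 0.20 for Hsph1. Without knockout 1, Hsp90aa1 stood at 0.043, and without wild-type 2 at 0.47, and Hspb1 at 0.0056 without knockout 1 and 0.54 without knockout 0. The same gave 0.11 (without knockout 1) to 0.29 (without knockout 0) for Hspe1, 0.066 to 0.16 for Hspd1 with the same libraries, 0.094 (without knockout 2) to 0.35 (without knockout 1) for Hspa1a, and 0.014 (without knockout 0) to 0.11 (without knockout 1) for Hspa8. Hsph1 and Hsp90ab1 were below 0 without knockout 1. Hsp90ab1 was also below 0 without wild-type 0 (−0.018) and without knockout 2 (−0.00092). No paired analysis was possible because the labels pair no mice and the library numbers match no named mouse. Hspa1a rests on the fewest fragments, 156 to 285 a library, so counting error weighs most there.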
